A study of Arabidopsis thaliana with 12 samples.

Results

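GSTU22 (AT1G78340), GSTU25 (AT1G17180) and UPOX (AT2G21640) are 3 genes of the oxidative stress response, of 13333 genes that could be named on the arrays. Each was read by the single probe set that lists it and no other gene. They were chosen as oxidative stress genes with lower levels after ATP in wild-type roots. Their values in that comparison and in the others that use wild-type arrays are therefore described here without a test. The ATP response of the dorn1-1 mutant compares arrays outside that rule and is tested. The genes were chosen with earlier results of these data known, so that test is not fully independent. GSTU22 and GSTU25 lie on chromosome 1 and UPOX on chromosome 2. UPOX is not a glutathione transferase, and its wild-type arrays did not separate by treatment. The annotation carries UPOX by its locus identifier only, and the name is taken from background knowledge.

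Glutathione transferases of the tau class, a class found in plants, join the tripeptide glutathione to reactive or foreign molecules, which can then be moved to the vacuole. Many tau genes are induced by oxidants, herbicides and reactive oxylipins, and GSTU25 is known for detoxification of the explosive TNT. UPOX, named for up-regulation by oxidative stress, encodes a mitochondrial protein whose transcript is widely used as a marker of reactive oxygen. ATP outside the cell acts as a wound signal in plants and raises cytosolic calcium and reactive oxygen through a lectin receptor kinase at the cell surface.

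Root RNA of Arabidopsis thaliana seedlings, 5 days old, was read on 12 one-colour arrays, with 3 biological replicates in each of 4 groups. Wild-type plants were Col-0 carrying aequorin, a reporter of cytosolic calcium, and the mutant was dorn1-1, a Col-0 line with an EMS-induced lesion in that receptor kinase. Whether dorn1-1 also carried aequorin is not given in the sources used here. All 12 samples also shared 3 days of cold. Each replicate was a pool of 120 seedlings kept overnight in the dark in 2 mM MES with 10 mM CaCl2, and roots were harvested 30 min after ATP or MES buffer was given. The ATP dose is 100 mM in the sample titles and 100 µM in the treatment protocol, so it is not settled.

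The arrays had medians between 6.07 and 6.17 on the log2 scale of RMA, the authors' summary of a probe set's brightness. Green-tissue transcripts differed between arrays. The mean of RCA, LHCB4.1 and PRK, 3 photosynthesis genes used as a shoot marker, ran from 9.76 to 10.59 on the buffer arrays and from 11.08 to 11.98 on the ATP arrays of the wild type, and from 9.09 to 11.89 and from 10.63 to 11.27 on those of dorn1-1. The dorn1-1 buffer arrays were widely spread, at 11.89 for replicate 1, 9.09 for replicate 2 and 10.44 for replicate 3. Of 19 root marker genes 2 were measured, EXPA7 and EXPA18, root hair expansins, with means over the arrays of 6.49 and 6.43, so the root label was checked on few genes. These means lay above 55.2% and 54.3% of the probe sets tested. Those of RCA, LHCB4.1 and PRK lay above 99.1%, 97.9% and 91%, so green-tissue transcripts read high in RNA labelled as root. The GAPDH control probes at the 3' end minus those at the 5' end, which reflect RNA quality, gave -0.25 ± 0.10 for buffer and -0.60 ± 0.07 for ATP in the wild type, and -0.60 ± 0.29 for buffer and -0.67 ± 0.20 for ATP in dorn1-1 (± SD, n = 3 per group). In these bulk samples fewer cells of a type and less RNA per cell cannot be told apart.

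The first question was how the 3 transcripts stood in the wild type with and without ATP, the comparison that chose them. GSTU22 had log2 values of 8.90, 8.40 and 8.31 on the wild-type buffer arrays and 7.53, 7.83 and 7.53 on the wild-type ATP arrays. All of its ATP arrays lay below all of its buffer arrays. The mean was 8.54 ± 0.32 in buffer and 7.63 ± 0.17 in ATP (± SD, n = 3 per group), a log2 difference of -0.91 (SE 0.20), or 1.88-fold lower in ATP.

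GSTU25 read 10.00, 9.74 and 8.93 on the wild-type buffer arrays, and 9.13, 8.52 and 8.64 with ATP. Its groups overlapped, because buffer replicate 3 lay below ATP replicate 1. The means were 9.55 ± 0.56 and 8.76 ± 0.32 (± SD, n = 3 per group), a log2 difference of -0.79 (SE 0.28), or 1.73-fold lower in ATP.

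UPOX read 8.79, 8.40 and 8.01 on the wild-type buffer arrays, and 8.20, 8.16 and 8.19 with ATP. The ATP arrays were nearly equal and sat inside the buffer range. The means were 8.40 ± 0.39 and 8.18 ± 0.02 (± SD, n = 3 per group), and the log2 difference of -0.22 (SE 0.16) was smaller than the spread between the buffer replicates. Without wild-type buffer replicate 1, the highest array, the UPOX difference was -0.03, and without replicate 3, the lowest, it was -0.42.

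**Figure D1:**
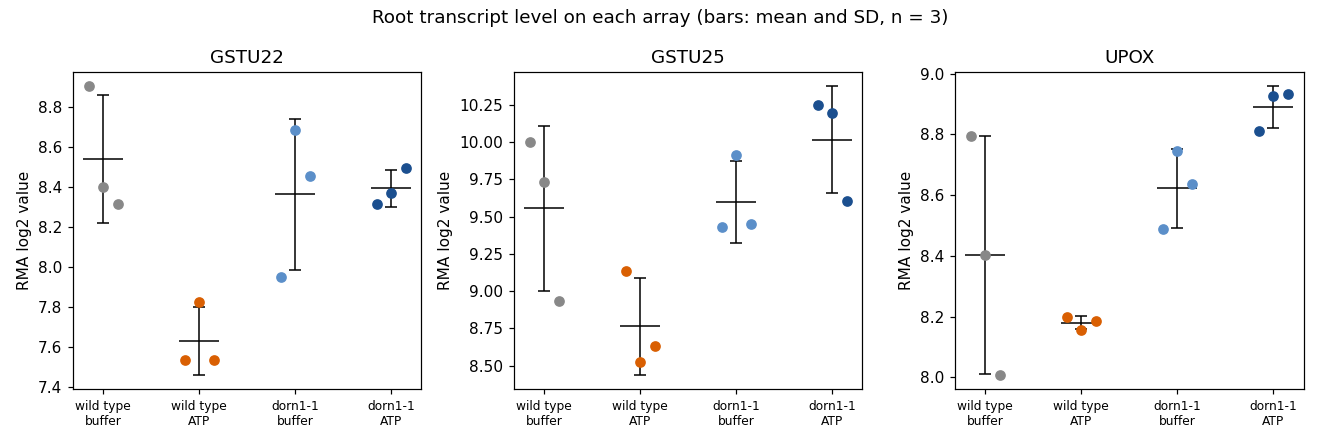
RMA log2 value (vertical axis) of GSTU22, GSTU25 and UPOX on each of 12 arrays, by genotype and treatment; points are arrays, and bars give the mean and SD of 3. The wild-type ATP arrays of GSTU22 lie between 7.53 and 7.83, below the other 9 arrays, while those of UPOX lie within the range of wild-type buffer.

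As a count, 1 of the 3 genes, GSTU22, had all ATP arrays below all buffer arrays, as did 19.2% of all 22746 probe sets tested. Since the genes were chosen on this contrast, the count is read no further. In the same arrays the shoot marker mean was 11.64 ± 0.49 in ATP against 10.30 ± 0.47 in buffer (± SD, n = 3 per group). The root marker EXPA18 had a wild-type log2 difference of -0.91 (SE 0.22, limma adjusted p = 0.0752), with all ATP arrays below all buffer arrays, and EXPA7 one of -0.44 (SE 0.25, limma adjusted p = 0.326), with overlapping arrays. In dorn1-1 these were -0.43 (SE 0.22) and -0.28 (SE 0.25), both with a limma adjusted p of 1. No probe set passed in that contrast. EXPA18 again had all ATP arrays below all buffer arrays in dorn1-1 (limma unadjusted p = 0.0735), and EXPA7 overlapped. The part of root hair cells in the values of the 3 genes was not tested. With the shoot marker mean as a covariate, the wild-type log2 differences were -0.63 (SE 0.20) for GSTU22, -0.79 (SE 0.33) for GSTU25 and -0.20 (SE 0.20) for UPOX.

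The next question was whether the same treatment moved these transcripts in dorn1-1, in arrays outside the rule that chose them. In dorn1-1 the means of GSTU22 were almost equal in buffer and ATP, and those of GSTU25 and UPOX were higher in ATP, and none of the 3 genes passed the test. GSTU22 read 7.95, 8.69 and 8.46 without ATP in dorn1-1 and 8.31, 8.37 and 8.50 with it. The ATP arrays lay within the buffer range. The means of 8.36 ± 0.38 and 8.39 ± 0.09 (± SD, n = 3 per group) differed by 0.03 on the log2 scale (SE 0.20, 95% interval -0.40 to 0.46, limma adjusted p = 1). Among the mutant arrays, buffer replicate 1 had both the highest shoot marker mean and the lowest GSTU22 value. Without that array the difference was -0.18 (SE 0.18, limma adjusted p = 0.749).

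GSTU25 read 9.43, 9.91 and 9.45 without ATP in dorn1-1 and 10.25, 10.20 and 9.60 with it. Of the ATP arrays, 2 lay above every buffer array, and replicate 3 lay below buffer replicate 2. The means of 9.60 ± 0.27 and 10.02 ± 0.36 (± SD, n = 3 per group) differed by 0.42 (SE 0.28, 95% interval -0.18 to 1.02). The limma adjusted p was 1, from 0.156 unadjusted.

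UPOX read 8.49, 8.74 and 8.64 without ATP in dorn1-1 and 8.81, 8.93 and 8.93 with it. All of its ATP arrays lay above all of its buffer arrays, which was so for 1 of the 3 genes and for 3.71% of all probe sets. The means of 8.62 ± 0.13 and 8.89 ± 0.07 (± SD, n = 3 per group) differed by 0.27 (SE 0.16, 95% interval -0.09 to 0.62). The limma adjusted p was 1, from 0.127 unadjusted. No probe set passed in this contrast (0%, with an unadjusted p under 0.05 for 523 of 22746, or 2.30%), so an adjusted p of 1 does not separate large from small differences. Among all probe sets tested, 97.7% had a lower dorn1-1 difference than GSTU25, 93.8% a lower one than UPOX and 52.5% a lower one than GSTU22. The intervals leave room for differences in either direction: at their lower ends they reach a ratio of ATP to buffer of 0.76 for GSTU22, 0.88 for GSTU25 and 0.94 for UPOX, and at their upper ends 1.37, 2.03 and 1.54. Without any single array the differences stayed between 0.30 and 0.62 for GSTU25 and between 0.20 and 0.33 for UPOX, and those of GSTU22 ran from -0.18 to 0.19. The SEs of the main fit used the spread over all arrays, wild type included. Fits of only the dorn1-1 groups gave SEs of 0.20 for GSTU22, 0.22 for GSTU25 and 0.12 for UPOX.

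The genotypes were then set side by side within each treatment. In buffer the dorn1-1 and wild-type arrays overlapped for each of the 3 genes. The share of all probe sets that overlapped in buffer was not counted, so this overlap is a description. The dorn1-1 minus wild-type log2 difference was -0.17 (SE 0.20) for GSTU22, 0.04 (SE 0.28) for GSTU25 and 0.22 (SE 0.16) for UPOX. The signs for GSTU22 and GSTU25 depended on single arrays. GSTU22 stood at 0.03 without dorn1-1 buffer replicate 1 and at 0.0084 without wild-type buffer replicate 1. GSTU25 stood at -0.27 without wild-type buffer replicate 3, at -0.11 without dorn1-1 buffer replicate 2 and at -0.077 with array weights.

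Under ATP the 3 genes stood higher in dorn1-1 than in the wild type, each with all mutant arrays above all wild-type arrays, which held for 17.1% of all probe sets. GSTU25 differed most of the 3, by a log2 difference of 1.25 (SE 0.28), or 2.38-fold. GSTU22 differed by 0.76 (SE 0.20), or 1.70-fold, and UPOX by 0.71 (SE 0.16), or 1.64-fold. The wild-type ATP arrays had been used to choose the genes, so these values and the absence of overlap are a description and support nothing about them. The shoot marker mean was lower in dorn1-1 ATP, at 11.00 ± 0.33 against 11.64 ± 0.49 (± SD, n = 3 per group), and with it as a covariate the log2 differences were 0.63 (SE 0.17) for GSTU22, 1.25 (SE 0.28) for GSTU25 and 0.70 (SE 0.17) for UPOX.

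**Figure D2:**
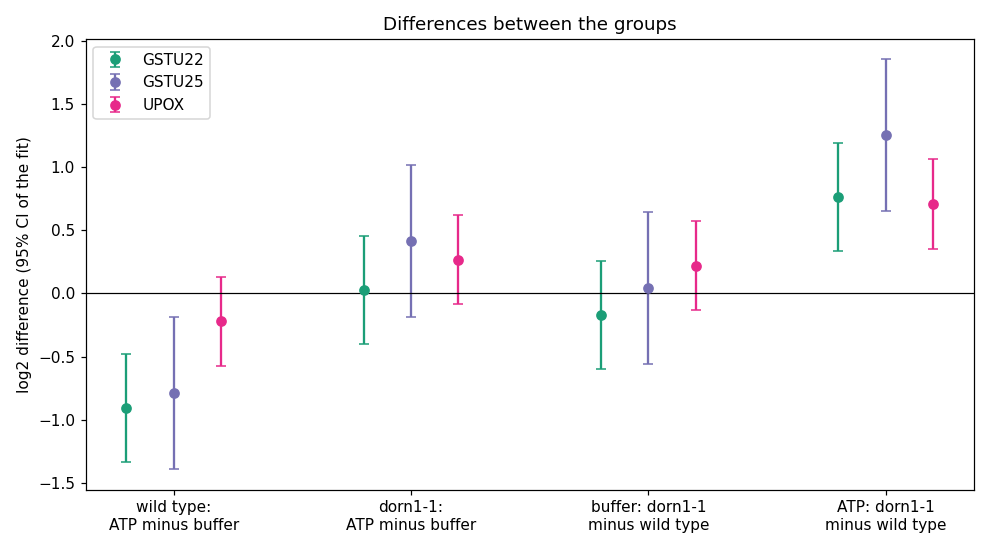
Log2 difference (vertical axis) with its 95% interval from the fit over all 12 arrays, for GSTU22, GSTU25 and UPOX in 4 comparisons of 3 arrays against 3. The genes were chosen on wild-type arrays, so intervals of comparisons that use those arrays are a description and not a test. Only the dorn1-1 ATP minus buffer comparison lies outside that rule. The differences under ATP, at the right, lie at 0.76, 1.25 and 0.71, and those in buffer lie at -0.17, 0.04 and 0.22.

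The dorn1-1 response minus the wild-type response gave a log2 difference of 0.94 (SE 0.28) for GSTU22, 1.21 (SE 0.39) for GSTU25 and 0.49 (SE 0.23) for UPOX. These values hold the wild-type contrast and are a description. The wild-type response made up nearly all of it for GSTU22 (-0.91 in the wild type, 0.03 in dorn1-1), whereas GSTU25 (-0.79 and 0.42) and UPOX (-0.22 and 0.27) had differences of opposite sign in the wild type and dorn1-1.

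The order of the 4 groups differed among the genes. For each of them wild-type ATP had the lowest mean. GSTU22 then had dorn1-1 buffer, dorn1-1 ATP and wild-type buffer at means of 8.36, 8.39 and 8.54, closer to each other than their SDs of up to 0.38. GSTU25 followed wild-type ATP with wild-type buffer and dorn1-1 buffer, at 9.55 and 9.60 and with overlapping arrays, and dorn1-1 ATP was highest at 10.02. The UPOX means had that same order, 8.18, 8.40, 8.62 and 8.89, where the wild-type groups overlapped, the 2 buffer groups overlapped, and the 2 mutant groups did not.

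Across the 12 arrays GSTU25 and UPOX varied together (Pearson r = 0.86, Spearman rho = 0.83), and still did after each group mean was removed (r = 0.70). GSTU22 followed GSTU25 with r = 0.71 (rho = 0.68) and UPOX with r = 0.68 (rho = 0.66), or 0.36 and 0.75 within groups. The arrays share genotype, treatment and tissue make-up, so these are descriptions of 12 arrays.

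The 3 genes related differently to the shoot marker mean over the same arrays. GSTU22 was lower where the shoot marker was higher (r = -0.74, and -0.62 within groups). GSTU25 (r = -0.31, and 0.01 within groups) and UPOX (r = -0.20, and -0.05 within groups) showed little of this. The shoot marker means were nearly equal in 3 pairs of a wild-type and a dorn1-1 array, the closest of all such pairs. In the first, wild-type ATP replicate 2 and dorn1-1 ATP replicate 3 (11.08 and 11.09), GSTU22 read 7.83 and 8.50, GSTU25 8.52 and 9.60, and UPOX 8.16 and 8.93. In the next, wild-type buffer replicate 2 and dorn1-1 ATP replicate 2 (10.59 and 10.63), GSTU22 read 8.40 and 8.37, GSTU25 9.74 and 10.20, and UPOX 8.40 and 8.93. In the last, wild-type ATP replicate 3 and dorn1-1 buffer replicate 1 (11.85 and 11.89), GSTU22 read 7.53 and 7.95, GSTU25 8.64 and 9.43, and UPOX 8.19 and 8.49. The dorn1-1 array was higher in each pair for GSTU25 and UPOX, and for GSTU22 it was higher where the wild-type array had received ATP. Wild-type ATP arrays, which stand in the first and the last pair, had been used to choose genes low in them. In the next and the last pair the treatments also differ, so the pairs are a description. The part of green tissue in the GSTU22 values was not tested beyond the covariate.

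**Figure D3:**
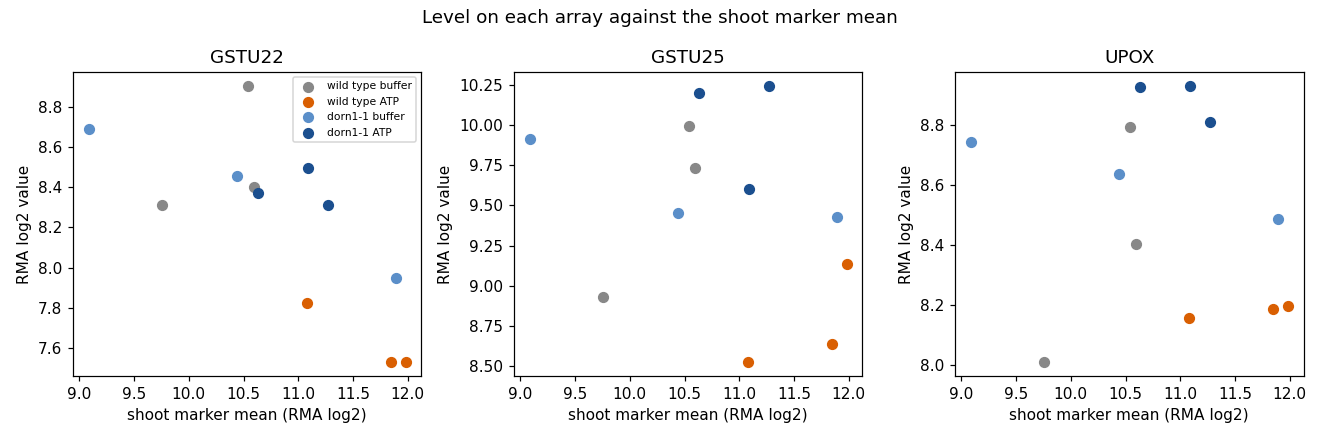
RMA log2 value of each gene (vertical axis) against the mean RMA log2 value of RCA, LHCB4.1 and PRK (horizontal axis) on 12 arrays, coloured by group. GSTU22 is lower on arrays with a higher shoot marker mean (r = -0.74), a slope not seen for UPOX (r = -0.20).

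The tau class was then read as a whole. RefSeq gives 27 genes a symbol that begins GSTU or ATGSTU. Beside these, 11 (40.7%) were measured under a symbol that begins GSTU, so this covers part of the class. Here and in the other lists a gene counts as measured only where a probe set lists it alone. The annotation does not list 8730 probe sets, so a gene not measured may still be on the array. Beside GSTU22 and GSTU25, 9 were measured, and the class was defined by name and not by how its genes moved. In the wild type their log2 changes with ATP ran in both directions, 5 with a higher mean in ATP and 4 with a lower one, around a median of 0.01 against -0.03 for all probe sets. By limma 0 of the 9 passed, against 0.664% of all probe sets, and an unadjusted p under 0.05 was reached by 7, a level that 22.2% of all probe sets reached. All ATP arrays lay above all buffer arrays for 3 of the 9 (13.9% of all probe sets) and below them for 4 (19.2%).

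Next to GSTU22 on chromosome 1, in gene order, stand GSTU23 on one side and GSTU21, GSTU20 and GSTU19 on the other, of which GSTU19 was not analysed here. GSTU20, known as a partner of the jasmonate-conjugating enzyme JAR1, had wild-type means of 7.81 ± 0.15 without and 8.49 ± 0.20 with ATP (± SD, n = 3 per group), a log2 difference of 0.69 (SE 0.19, limma adjusted p = 0.0928) against -0.91 for GSTU22 in the same run of genes. GSTU21 had a log2 difference of -0.25 (SE 0.11, limma adjusted p = 0.198) and GSTU23 of 0.01 (SE 0.19, limma adjusted p = 0.987). The tandem neighbours of GSTU22 thus had differences of either sign.

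GSTU25 is flanked by GSTU24, which was not analysed here, and by GSTU26. GSTU26 had wild-type means of 9.92 ± 0.24 without and 9.33 ± 0.32 with ATP (± SD, n = 3 per group), a log2 difference of -0.59 (SE 0.24, limma adjusted p = 0.174) with the same sign as the -0.79 of GSTU25. In dorn1-1 GSTU26 differed by 0.25 (SE 0.24), again with the sign of GSTU25, and by limma its difference in response of 0.84 (SE 0.33) had an adjusted p = 0.712. GSTU26 read between 9.92 and 10.00 on the dorn1-1 ATP arrays and between 9.12 and 9.69 on the wild-type ATP arrays, without overlap. Neighbouring tau genes are close relatives, and probes of one can bind transcripts of another, so these readings may not be fully separate.

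Of the tau genes elsewhere, GSTU27, on chromosome 3, and GSTU28, on chromosome 1, had lower means in wild-type ATP. GSTU27 read 9.07 ± 0.21 without and 8.46 ± 0.16 with ATP (± SD, n = 3 per group, log2 difference -0.61, SE 0.19, limma adjusted p = 0.116). GSTU28 read 7.18 ± 0.15 and 6.51 ± 0.08 (± SD, n = 3 per group, log2 difference -0.68, SE 0.27, limma adjusted p = 0.179). GSTU18 was the tau gene with the largest wild-type difference, at 5.83 ± 0.17 without and 7.44 ± 0.57 with ATP (± SD, n = 3 per group, log2 difference 1.61, SE 0.37, limma adjusted p = 0.0668). GSTU16 differed by 0.75 (SE 0.33) and GSTU15 by 0.28 (SE 0.15), with limma adjusted p of 0.216 and 0.288.

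In dorn1-1 the 9 genes had log2 differences with ATP between -0.37 (GSTU28) and 0.39 (GSTU18). By limma 0 of the 9 passed, where 0% of the probe sets tested did. The unadjusted level of 0.05 was reached by 0 of the 9, and by 2.30% of the probe sets tested. Every one of the 9 overlapped between buffer and ATP. Complete separation with ATP higher was seen for 3.71% of the probe sets tested, and the share with ATP lower was not counted. Beside shares this small, 0 of 9 genes does not show a loss of response. The median of the 9 differences was 0.08, against 0.02 for all probe sets. For the difference in response 0 of the 9 passed, against 0.00879% of all probe sets. The unadjusted p was under 0.05 for 3 (6.97% of all probe sets), GSTU18 (-1.23, SE 0.52), GSTU20 (-0.75, SE 0.27) and GSTU26 (0.84, SE 0.33). Between the genotypes 0 of the 9 passed in buffer, against 0.0659% of all probe sets, and 0 under ATP, against 6.68%. Under ATP 1 was called higher and 2 lower with array weights (13.5% of all probe sets), and 1 higher without dorn1-1 buffer replicate 2 (7.85%).

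**Figure D4:**
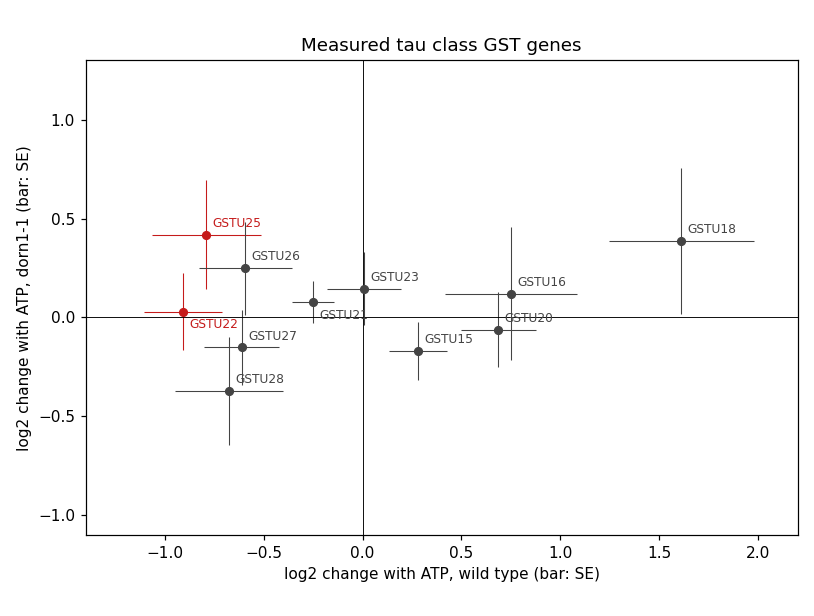
Log2 change with ATP in the wild type (horizontal axis) against that in dorn1-1 (vertical axis) for the 11 measured tau class genes, with SE bars from the fit; GSTU22 and GSTU25, chosen for low wild-type values, are in red. The wild-type changes spread from -0.91 to 1.61, and the dorn1-1 changes from -0.37 to 0.42.

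The tau genes differed in how they followed the shoot marker. Over the 12 arrays the correlation with the shoot marker mean was 0.92 for GSTU18, 0.90 for GSTU16 and 0.67 for GSTU20, and it was -0.74 for GSTU27, -0.74 for GSTU28 and -0.60 for GSTU26, with -0.74 for GSTU22 and -0.31 for GSTU25. It was weaker for GSTU21 (-0.51), GSTU23 (-0.46) and GSTU15 (0.28). With the shoot marker mean as a covariate, the wild-type log2 differences were 0.79 (SE 0.21) for GSTU18, 0.05 (SE 0.23) for GSTU16, 0.46 (SE 0.21) for GSTU20, -0.31 (SE 0.25) for GSTU26, -0.38 (SE 0.20) for GSTU27 and -0.27 (SE 0.27) for GSTU28. They were 0.27 (SE 0.18) for GSTU15, -0.20 (SE 0.14) for GSTU21 and 0.35 (SE 0.16) for GSTU23, which stood at 0.01 without the covariate. Without dorn1-1 buffer replicate 1 the wild-type limma calls among the 9 were 3 higher and 1 lower (10.2% of all probe sets), with array weights 4 higher and 4 lower (27.3%), and without dorn1-1 buffer replicate 2 they were 1 higher and 0 lower (1.58%).

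Other glutathione transferase classes were scarcely covered. Of 13 genes with a phi class symbol in RefSeq, GSTF4 was measured under such a symbol, with differences that measured -0.04 (SE 0.17) for the wild type and 0.23 (SE 0.17) for dorn1-1, and ATGSTF13, added after the tables were seen. ATGSTF13 was higher in dorn1-1 under ATP, at 6.15 ± 0.17 against 4.97 ± 0.64 (± SD, n = 3 per group, log2 difference 1.18, SE 0.29, limma adjusted p = 0.0345). In buffer it differed by 1.11 (SE 0.29, limma adjusted p = 0.173) and with ATP by -0.38 in the wild type and -0.31 in dorn1-1, neither past the threshold. GSTL3, of the lambda class and the single measured gene of 12 from other classes, had wild-type means of 8.68 ± 0.25 without and 9.67 ± 0.41 with ATP (± SD, n = 3 per group, log2 difference 0.99, SE 0.33, limma adjusted p = 0.132).

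The enzymes that keep glutathione reduced had small differences. GR1, a glutathione reductase, differed by -0.18 (SE 0.13) in the wild type and 0.01 (SE 0.13) in dorn1-1. Of 19 genes in the glutathione list 2 were measured, and 0 passed in any of the 5 contrasts, where 0% to 6.68% of all probe sets passed. The xenobiotic and oxylipin list gathered 19 genes often induced together with tau transferases. Of these 3 were measured, and 0 passed in any contrast. Beside those shares, 0 calls in so few genes are read no further. UGT73B4, a glucosyltransferase of that list, had a wild-type difference of -0.37 (SE 0.17, limma adjusted p = 0.217) and a dorn1-1 difference of 0.13 (SE 0.17). UGT73B5 and AER had wild-type differences of the opposite sign, 0.04 and 0.46, and dorn1-1 differences of -0.06 and 0.11. The wild-type median of the list was 0.04, against -0.03 for all probe sets.

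Of 19 genes listed beside UPOX for mitochondrial stress, 6 were measured. With ATP, 0 of the 6 passed in either genotype, and the median log2 difference was -0.08 for the wild type and 0.09 for dorn1-1, against -0.03 and 0.02 for all probe sets. Under ATP 1 of the 6 was higher in dorn1-1 and 0 were lower, where 6.68% of all probe sets were called in either direction, and the median of 0.28 compares with 0.01 for all probe sets. The one that passed was AT5G09570, at 7.76 ± 0.05 in dorn1-1 and 7.09 ± 0.19 in the wild type (± SD, n = 3 per group, log2 difference 0.67, SE 0.15, limma adjusted p = 0.0247). With ATP it differed by 0.48 in dorn1-1 (SE 0.15, limma adjusted p = 1, from 0.00801 unadjusted) and by 0.14 in the wild type (SE 0.15), beside 0.27 and -0.22 for UPOX. AT5G64400, the member with the highest mean, differed by 0.00 in dorn1-1 and by -0.03 in the wild type (SE 0.10 each).

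Of 39 enzymes that remove reactive oxygen, 7 were measured. With ATP 0 of them passed in either genotype, against 0.664% of all probe sets in the wild type and 0% in dorn1-1. In the wild type 5 of the 7 had an unadjusted limma p under 0.05, a level that 22.2% of all probe sets reached. Wild-type means were higher in ATP for 4 and lower for 3, and the largest log2 difference was 1.36, for TAPX. ATMDAR2, a monodehydroascorbate reductase that regenerates ascorbate, had, like GSTU22, its lowest mean in wild-type ATP. It read 10.19 ± 0.06 without and 9.73 ± 0.19 with ATP in the wild type, and 10.48 ± 0.21 and 10.48 ± 0.06 in dorn1-1 (± SD, n = 3 per group). The log2 difference with ATP was -0.46 (SE 0.13, limma adjusted p = 0.0945) in the wild type and -0.01 (SE 0.13) in dorn1-1. Under ATP 1 of the 7 was called higher in dorn1-1 and 0 lower, where 6.68% of all probe sets were called in either direction. Mutant means were higher for 3 of the 7 and lower for 4, with a median of -0.03 against 0.01 for all probe sets. The called gene was ATMDAR2, higher in the mutant by 0.74 (SE 0.13, limma adjusted p = 0.00869). In buffer its difference was 0.29 (SE 0.13, limma adjusted p = 0.369), of the opposite sign to the -0.17 of GSTU22. AT3G11630, the member with the highest mean, had a wild-type difference of 0.69 (SE 0.27, limma adjusted p = 0.166). The 3 measured NADPH oxidase genes of 10, which make superoxide outside the cell, had 0 calls in any contrast (0% to 6.68% of all probe sets). AT1G19230, the one with the highest mean, differed by -0.30 (SE 0.24) in the wild type and by -0.17 (SE 0.24) in dorn1-1.

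Last, the genes whose values most resembled each of the 3 over the 12 arrays were listed. For GSTU22 these were AT4G15810 (r = 0.96), AT4G26910 (r = 0.95), SCN1 (r = 0.95), AT5G60520 (r = 0.95) and sks16 (r = 0.93). AT4G15810 has a second probe set that ran the other way (r = -0.70), so its likeness rests on one of its probe sets. AT5G60520 had wild-type and dorn1-1 log2 differences with ATP of -0.82 and -0.13, beside -0.91 and 0.03 for GSTU22. The wild-type differences of the others were smaller, at -0.27 for AT4G15810, -0.30 for AT4G26910, -0.255 for SCN1 and -0.64 for sks16.

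For GSTU25 the nearest were AT5G63440 (r = 0.93), AT2G15280 (r = 0.93), LSM1B, of a complex that acts in messenger RNA decay (r = 0.93), bHLH34, a basic helix-loop-helix factor (r = 0.92), and AT3G03920 (r = 0.90). Their wild-type differences lay between -0.38 and -0.24, smaller than the -0.79 of GSTU25, and under ATP they were 0.45 to 0.60 higher in dorn1-1. For UPOX they were AT3G23060 (r = 0.92), AT1G24095 (r = 0.90), AT1G06790 (r = 0.89), AT3G17030 (r = 0.89) and AT2G45730 (r = 0.87). No tau gene was among the 15, and none of the 15 was shared between the lists. These are the highest correlations of 12 values over 13483 single-gene probe sets, and high values arise in such a search for any gene.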

How the data were processed

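Biotin-labelled root RNA of 12 samples was hybridised to one-colour arrays. The deposited values are log2 values, 1 per probe set and array, which the authors obtained with RMA through affy, per the submitters' processing notes, with versions not given in the sources used here. This step makes arrays alike in distribution and compresses differences near the background. Of 22810 probe sets, 64 controls were left out. Names came from the platform annotation (13513 probe sets with 1 gene, 503 with several, 8730 not listed), and 13484 matched the RefSeq table of TAIR10.1.

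limma 3.58.1 in R 4.3.3 fitted 1 mean per group over all 12 arrays, with Benjamini-Hochberg adjustment over 22746 probe sets in each of 5 contrasts and a threshold of 0.05. The code was tested on simulated data. Groups came from sample titles, and the number of arrays limits precision. Figures used matplotlib 3.10.9.

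The 3 genes and all lists were chosen with earlier results of these data known. Named were every measured tau gene, list members that passed in a contrast or had the highest mean, and the 5 nearest patterns per gene. The likeness of proteins was not analysed here. Of 18 same-numbered pairs of arrays, 8 had correlated deviations over 0.1 (range -0.275 to 0.56), so replicate numbers were not taken as pairs. Alternatives were 3 other scalings, a filter on mean level (40th percentile), trend and robust moderation, array weights, the replicate block, the shoot marker mean as a covariate, fits of only the groups compared and omission of each array.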

Additional observations from a re-analysis of the deposited data

How the results depend on the processing

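Of the log2 differences of the 3 genes, 1 moved beyond the replicate SD, that of GSTU22 in the wild type, which was -0.63 with the shoot marker covariate. Its dorn1-1 difference was -0.052 with array weights and ran from -0.18 to 0.19 without single arrays. In buffer the genotype difference of GSTU25 was -0.077 with array weights, and without single arrays it ran from -0.27 to 0.26 and that of GSTU22 from -0.34 to 0.03. The cause was not tested. No alternative brought any of the 3 past the threshold in dorn1-1, and the filter kept all 3.

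Counts of called probe sets depended on the settings, and causes were not tested. For the wild-type response, 151 became 259 with cyclic loess, 228 with trend and robust moderation, 6203 with array weights, 78 with the covariate and 2506 with only the groups compared. Without single arrays it ran from 6 to 2316. The dorn1-1 count of 0 was as high as 12 without single arrays. The count for the difference in response, 2, was 1 with the filter, 6 with array weights, 4 with the covariate and 1 to 3 without single arrays. For the genotypes in buffer, 15 became 28 with cyclic loess, 8 with the filter, 2568 with array weights, 306 with the covariate, 1 with only the groups compared and 2 to 315 without single arrays. Under ATP, 1519 became 3067 with array weights and 272 to 2643 without single arrays. Among the fits without single arrays, the highest count of each comparison came without dorn1-1 buffer replicate 1. The share of higher calls was 40% in buffer against 29.4% after median centring, and 70.1% under ATP against 57.9% with cyclic loess.

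With the replicate block the counts were 447 for the wild-type response, 1 for the difference and 24 for the genotypes in buffer, and 1 of the 9 other tau genes was called higher in the wild type (1.97% of all probe sets). Of 36 comparisons of an array with another group, its own number correlated best in 12. No other probe set lists the 3 genes, so that alternative gave no value.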
